A study of Homo sapiens with 4 samples.

Results

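The read clusters of a LARP4 eCLIP that lie on the mitochondrial chromosome were described along that genome and set beside the nuclear clusters. A cluster is an interval called by the authors in 1 replicate, and it need not be above input. LARP4 is a La-related RNA-binding protein, and the series was made to find its RNA targets in HEK293, a human cell line derived from embryonic kidney. The members were all intervals on the mitochondrial chromosome, on either strand. They numbered 174 of 171755 clusters in replicate 1 of the LARP4 eCLIP, 186 of 191899 in replicate 2 and 1 of 7153 in the list for the whole series. eCLIP crosslinks proteins to RNA with ultraviolet light, recovers LARP4 with an antibody and sequences the attached RNA fragments. Unmodified HEK293 cells from 1 line were used for all samples, and the ultraviolet dose was 400 mJ/cm2 at 254 nm. The 2 LARP4 eCLIP samples and the 2 size-matched inputs, libraries made without the antibody, are biological replicates per the labels' protocols. The inputs are present in the lists only through the folds, as their denominator. The lists hold no expression levels, so the cell line was not checked against marker genes.

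The human mitochondrial genome encodes 2 rRNAs, 22 tRNAs and 13 proteins of the respiratory chain and ATP synthase. Both strands are transcribed as long precursors, and the tRNAs that lie between the other genes are cut out to release rRNAs and mRNAs. Most genes are read from what is the plus strand in the lists, while ND6 and 8 tRNAs are read from the minus strand. These RNAs stay inside mitochondria, whereas LARP4 is known chiefly as a cytoplasmic protein that binds poly(A) tails and poly(A)-binding protein. Genes are called by their RefSeq symbols, so that RNR1 and RNR2 are the 12S and 16S rRNAs, TRNY is tRNA-Tyr, and COX1 is a cytochrome c oxidase subunit.

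The transcript classes of mitochondrial clusters differed in level. The value of a cluster is the authors' log2 fold over input, in which 0 is the input level. Median log2 folds were highest in tRNAs, at 1.63 and 1.90 in replicates 1 and 2 (mean 1.77 ± 0.19, SD, n = 2), and next in the 12S rRNA, at 1.23 and 1.36 (1.30 ± 0.09). The tRNA medians rest on 6 and 8 clusters, from 6 of 22 tRNAs. A TRNC cluster and a 1-base TRNM cluster were in replicate 2 alone. With clusters wholly inside a transcript alone, the tRNA medians were 1.20 and 2.09 (SD 0.62), so that in replicate 1 the tRNAs came just below the 12S rRNA, at 1.23. The mRNA clusters centred on the input level, at −0.10 and 0.09. The 16S rRNA lay lowest, at −1.37 and −1.18 (−1.28 ± 0.14). Nuclear clusters had a median log2 fold of 1.28 and 1.30, so the mitochondrial mRNA median was 1.38 and 1.21 log2 units below that of nuclear clusters. In the nuclear lists, 10.9% and 17.7% of clusters lay below the mitochondrial mRNA median of their replicate. Below input were 97 of 174 and 82 of 186 mitochondrial clusters, where 11.6% and 11.2% of all clusters were. In replicates 1 and 2, 25 and 31 mitochondrial clusters had log2 folds above 1, where 59.4% and 60.9% of all clusters did. The median of the 12S rRNA was near the nuclear median, and that of all tRNA clusters lay above it in both replicates. With clusters wholly inside a transcript alone, the tRNA median of 1.20 in replicate 1 lay below the nuclear 1.28. With 2 replicates no permutation test can reach a p under 0.05, and neighbouring clusters of 1 transcript are not replicates, so these differences are given beside their SDs with no test.

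**Figure D1:**
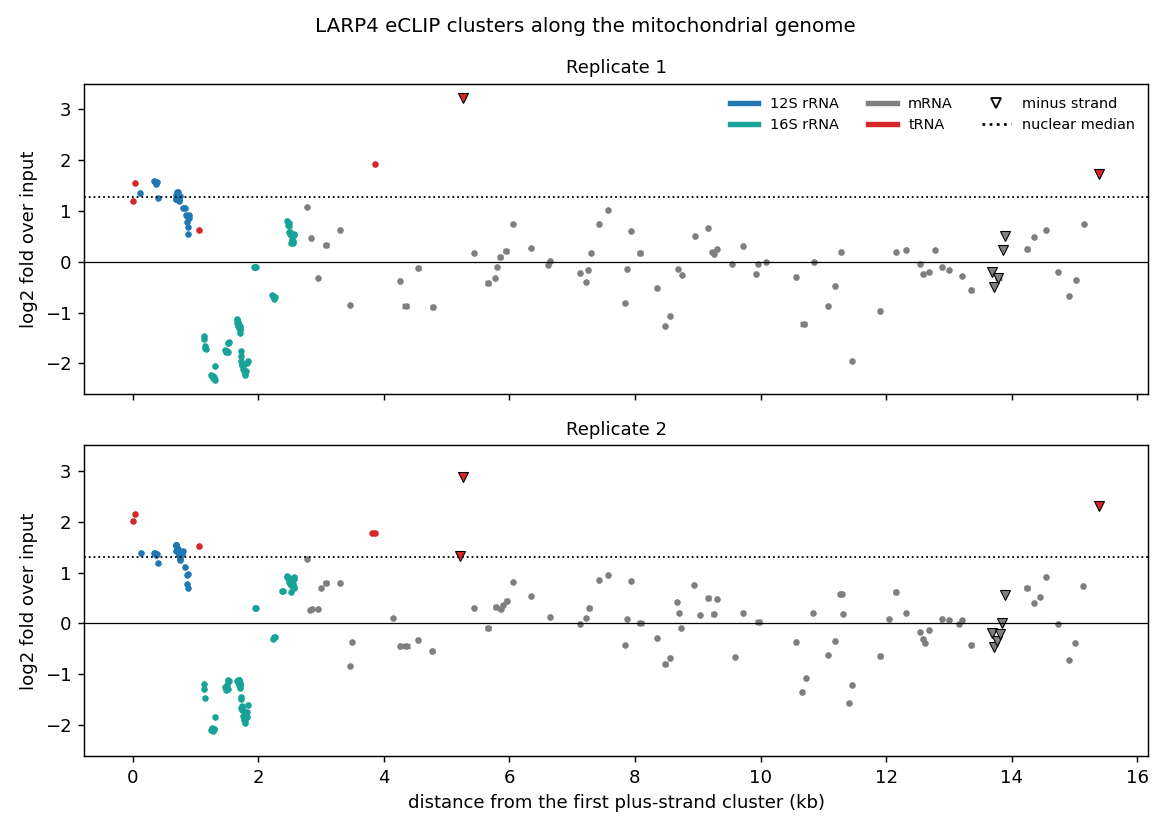
Log2 fold over input of each mitochondrial cluster (y axis) against its distance in kb from the first plus-strand cluster (x axis), for replicates 1 and 2. Points and bars are clusters coloured by transcript class, triangles are minus-strand clusters, and the dotted line is the nuclear median of the replicate. The tRNA clusters and the 12S rRNA stand above input, the first part of the 16S rRNA below it, and mRNA clusters scatter around 0.

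Every mitochondrial cluster had its midpoint in an annotated gene of its own strand. Clusters were found in 21 of 37 genes, 20 of them in both replicates. Both rRNAs and all 13 mRNAs were among these, but only 6 of 22 tRNAs. The 16 tRNAs without a cluster included TRNL1, which joins the 16S rRNA to ND1, and TRNE, TRNQ, TRNA, TRNN and TRNS1 of the minus strand. The lists show only intervals that were called, so a missing cluster gives no level. Plus-strand clusters ran from position 588 to 15752 in replicate 1 and 15750 in replicate 2, and covered 4594 and 4824 bases. Minus-strand clusters covered 285 and 289 bases. The rRNAs held 53.4% and 50.5% of the mitochondrial clusters but 17.4% and 17.1% of the bases covered, because their clusters had a median width of 7 and 6.5 bases against 49 and 43 in mRNAs. Touching neighbours numbered 78 and 79 pairs within rRNAs. The count of clusters therefore weighs the rRNAs more than their covered length does.

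Mitochondrial values recurred closely between the replicates. Of the 174 clusters of replicate 1, 168 (96.6%) overlapped a cluster of replicate 2, against 44.8% of nuclear clusters. All 168 pairs were within 1 log2 unit of each other, as were 73.4% of nuclear pairs. From the differences within pairs, the SD of 1 value came to 0.21 log2 units on the mitochondrial chromosome and 0.67 in the nuclear lists. Pearson's r across the 168 pairs was 0.98 and Spearman's rho 0.98, and within mRNA pairs alone they were 0.92 and 0.90. These describe clusters that share libraries and touch each other, and are not replicates. Replicate 2 was the higher in 82.7% of mitochondrial pairs, with a median difference of 0.20 log2 units, and in 53.8% of nuclear pairs, with a median difference of 0.09. The median offset between replicates was thus larger on the mitochondrial chromosome than in the nuclear lists. It was not shared by every transcript. Replicate 2 had the higher median in 16 of 20 transcripts, and its difference from replicate 1 was 0.91 in TRNV but −0.35 in TRNY. The part of this offset in any value near the input level was not tested.

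**Figure D2:**
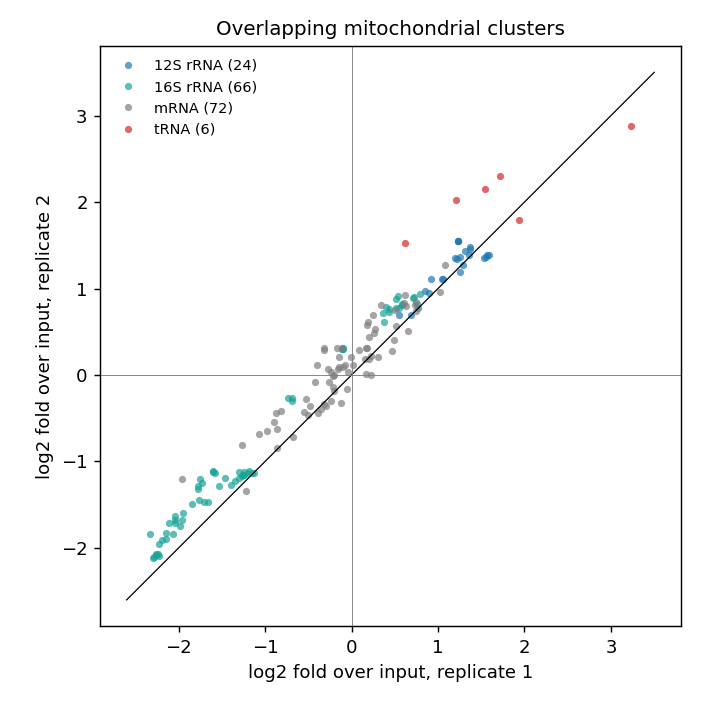
Log2 fold over input in replicate 1 (x axis) and replicate 2 (y axis) for the 168 overlapping mitochondrial clusters, coloured by class with the number of pairs in brackets, and the line of equal values. Most points lie a little above the line, and the classes keep their places along it.

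The highest folds on the chromosome were in tRNAs, the adaptors that carry amino acids to the ribosome. TRNY, on the minus strand, held the only mitochondrial region of the authors' deposited table for the series, at 5829 to 5856 of hg19, with a log2 fold of 3.05 (8.30-fold), which equals the mean of the 2 replicate values. The cluster at 5829 to 5856 in replicate 1 had a log2 fold of 3.23 (9.37-fold), and that at 5832 to 5857 in replicate 2 had 2.88 (7.35-fold), or 3.05 ± 0.25 (SD, n = 2). Their −log10 p values over input were 13.7 and 14.3. The value of replicate 1 lay just above a log2 fold of 3 and that of replicate 2 just below it. Within the authors' deposited table the region stood low, with 4.17% of the 7153 regions below it. Enriched is used for clusters that reach 3 in both log2 fold and −log10 p. By that rule TRNY in replicate 1 was the only enriched mitochondrial cluster of 174, where 5.01% of all clusters were enriched. Replicate 2 had 0 of 186, where 5.5% of all clusters were enriched.

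The clusters of the other tRNAs were above input in each replicate in which they were called, as were most clusters of the lists. Of all clusters, 11.6% in replicate 1 and 11.2% in replicate 2 were below input. TRNP, tRNA-Pro on the minus strand, had log2 folds of 1.72 at 15963 to 15991 in replicate 1 and 2.31 at 15963 to 15992 in replicate 2 (2.01 ± 0.41, SD, n = 2), with −log10 p of 10.9 and 26.4. TRNM, tRNA-Met on the plus strand, had 1.93 at 4417 to 4466 and 1.79 at 4419 to 4466 (1.86 ± 0.10 for this pair), with −log10 p of 14.1 and 14.3. Replicate 2 also had a cluster of 1 base in TRNM at 4405, with a log2 fold of 1.79. TRNM and TRNP did not differ beyond their SDs.

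TRNF, tRNA-Phe, lies directly before the 12S rRNA and held 2 touching clusters. The first, at 588 to 614 in both replicates, had log2 folds of 1.20 and 2.02. The second had 1.55 at 615 to 644 in replicate 1 and 2.15 at 615 to 640 in replicate 2 (1.85 ± 0.43, SD, n = 2). TRNV, tRNA-Val between the rRNAs, had 0.62 at 1615 to 1661 in replicate 1, with a −log10 p of 2.99, and 1.52 at 1617 to 1661 in replicate 2, with 16.2. Of the tRNAs it varied most, at 1.07 ± 0.64 (SD, n = 2), and its distance from the 12S rRNA was smaller than that SD. TRNC, tRNA-Cys, which neighbours TRNY on the minus strand, had a cluster in replicate 2 alone, at 5801 to 5818, with a log2 fold of 1.33 and a −log10 p of 1.11. Read from the 5′ end, the clusters of TRNY centred between 68.2% and 77.3% of the tRNA length and those of TRNP between 64.7% and 71.3%. The long TRNM clusters centred between 55.9% and 63.2% and those of TRNV between 50% and 57.2%. The first TRNF cluster centred between 31.7% and 37.3% and the second between 69.0% and 77.5%. The TRNC cluster lay between 22.7% and 28.8% and the 1-base TRNM cluster between 2.21% and 8.09%. The positions thus differed between tRNAs. These ranges span the replicates in which the cluster was called and a shift of the gene borders by up to 2 bases.

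Minus-strand clusters numbered 7 in replicate 1 and 9 in replicate 2, and those outside tRNAs were all in ND6. ND6 encodes the complex I subunit that is read from this strand. It had 5 and 6 clusters between 14256 and 14495, with median log2 folds of −0.20 and −0.19. The one nearest its 5′ end, at 14465 to 14495 in replicate 1 and 14474 to 14494 in replicate 2, had the highest values, 0.51 and 0.57, with −log10 p of 2.45 and 2.96. Next towards the 3′ end, the values were 0.23 at 14431 to 14455 in replicate 1 and 0.00 at 14429 to 14449 in replicate 2. In replicate 1 the remaining clusters had −0.32 at 14323 to 14430, −0.50 at 14303 to 14322 and −0.20 at 14259 to 14302. In replicate 2 they had −0.20 at 14376 to 14428, −0.34 at 14323 to 14375, −0.46 at 14302 to 14322 and −0.18 at 14256 to 14301. ND6 thus went from above to below input along its length in each replicate. The tRNA clusters of the same strand lay at 1.33 or higher, where 59.4% and 60.9% of all clusters in replicates 1 and 2 lay above 1. They were those of TRNY and TRNP in both replicates and of TRNC in replicate 2 alone.

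The 12S rRNA, RNA of the small mitochondrial ribosomal subunit, was above input over its whole covered length. All 25 clusters of RNR1 in replicate 1 and all 26 in replicate 2 had log2 folds above 0, as most clusters of the lists had, between 0.55 and 1.59 and between 0.69 and 1.55. At its 5′ end the cluster at 701 to 719 in replicate 1 had 1.36 and that at 695 to 737 in replicate 2 had 1.38. The 5 clusters between 922 and 1000 had medians of 1.56 and 1.36, and the cluster pair at 939 to 948 and 940 to 948 there, 1.57 and 1.39, was the highest outside tRNAs by the lower of its 2 values. Between 1273 and 1487 the medians were 1.19 and 1.36. Values there began at 1.23 and 1.55 at 1273 to 1274. Replicate 1 reached 1.37 at 1304 to 1316 and stood at 1.29 at 1338 to 1350, where replicate 2 had 1.24 to 1.27 before 1.42 at 1383 to 1386. Towards the 3′ end both were lower, with 1.06 at 1371 to 1419 in replicate 1 and 1.11 at 1387 to 1446 in replicate 2. They reached 0.77 in both replicates at 1454 to 1471 and 1453 to 1471. The lowest were 0.55 at 1472 to 1473 and 0.69 at 1472 to 1475, after which the last clusters stood at 0.92 at 1482 to 1487 and 0.98 at 1476 to 1481. The −log10 p was at its upper limit of 400 in 21 and 23 RNR1 clusters, where 0.293% and 0.274% of all clusters reached it.

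The 16S rRNA, RNA of the large mitochondrial ribosomal subunit, was below input in its first part and above input near its 3′ end. From 1719 to 2449 in replicate 1 and 1717 to 2445 in replicate 2, every cluster of RNR2 lay below a log2 fold of −1, 45 in replicate 1 and 44 in replicate 2. Their medians were −1.76 and −1.48. Over all mitochondrial clusters, 49 and 48 were below −1, where 2.43% and 2.37% of all clusters were. The lowest stretch, at 1826 to 1913, had medians of −2.26 and −2.08, or 4.50-fold below input in the mean. It held all 5 overlapping pairs with the lowest values, led by 1873 to 1876 in replicate 1 and 1874 to 1876 in replicate 2, with −2.29 and −2.12. The stretches at 1717 to 1768, 2057 to 2120 and 2240 to 2449 had means of −1.47 ± 0.27, −1.47 ± 0.38 and −1.66 ± 0.15 (SD, n = 2). Within the last of these, the values went from −1.13 at 2249 to 2255 in replicate 1 and −1.11 at 2259 to 2263 in replicate 2 to a minimum at 2376 to 2385 in both, with −2.23 and −1.96. A step of the same place in both replicates lay on the way, from −1.40 and −1.27 at 2304 to 2308 to −1.96 and −1.67 at 2309 to 2311. The authors' −log10 p is 0 for clusters below input, so it carries nothing on these values.

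After that part the values of RNR2 were higher but did not rise steadily. At 2526 to 2557 replicate 1 had a median of −0.11 and replicate 2 one of 0.30, on opposite sides of input. At 2806 to 2852 it was −0.69 and −0.27. A pair of clusters between 2974 and 2979, in replicate 2 only, had 0.63 and 0.64. In the last stretch, 3043 to 3169, all 15 and 17 clusters were above input, where 11.6% and 11.2% of all clusters were below it. Their medians of 0.54 and 0.78 (0.66 ± 0.17, SD, n = 2) lay below the nuclear medians of 1.28 and 1.30. The highest there were 0.80 at 3048 to 3060 in replicate 1 and 0.93 at 3049 to 3060 in replicate 2. The −log10 p reached 400 in 1 of these clusters in replicate 1 and in 14 in replicate 2. The SDs between replicates were 0.13 in the lowest and 0.17 in the last stretch. The lowest stretch was picked by its values, so its distance from the last is a description and was not tested.

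**Figure D3:**
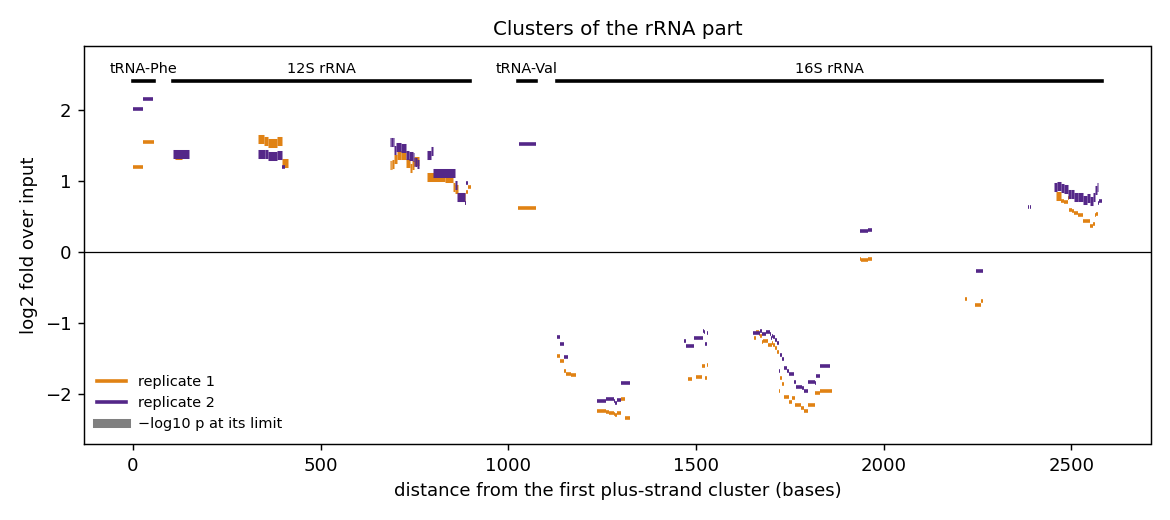
Log2 fold over input (y axis) of the clusters from tRNA-Phe to the 16S rRNA against the distance in bases from the first plus-strand cluster (x axis), for replicate 1 (orange) and replicate 2 (purple). Thick segments have a −log10 p at the limit of 400, and black lines show the span covered by clusters of each transcript. Both replicates follow 1 course, above input through the 12S rRNA, down to about −2.26 and −2.08 in the first part of the 16S rRNA and above input again at its 3′ end.

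All mitochondrial clusters with a −log10 p at the limit, 22 and 37, were thus in the rRNAs and none in mRNAs or tRNAs. Their log2 folds reached down to 0.77 and 0.72, with medians of 1.24 and 1.27. The 481 and 488 nuclear clusters at the limit had log2 folds of at least 1.45 and 1.40. Some of the rRNA clusters thus reached the limit at lower folds than any nuclear cluster did, while others overlapped the nuclear range. These lists give no read numbers, so the depth of each cluster is unknown.

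The mRNAs stayed close to the input level. Of their 75 clusters in replicate 1 and 84 in replicate 2, 69 and 79 were within 1 log2 unit of input. Of all clusters, 59.4% and 60.9% lay above 1, and 2.43% and 2.37% lay below −1. The mRNA clusters past 1 in log2 fold and 3 in −log10 p numbered 2 and 1, against 18 and 22 in RNR1 and 5 and 7 in tRNAs. Over the mitochondrial chromosome such clusters made 25 of 174 and 30 of 186, where 14% and 13.7% of all clusters passed. The median was above input in both replicates for 5 mRNAs, below it in both for 5, and on opposite sides for ND4L, ATP8 and ND3. Some of these sides rest on values at input. COX2 counted as above with 0.002 in replicate 1, and ND5 as below with −0.004 in replicate 2. Among all clusters of the lists, 11.6% and 11.2% were below input.

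Among complex IV mRNAs, which encode the core subunits of cytochrome c oxidase, all 3 had medians above input in both replicates. In replicate 1, however, COX2 had 3 clusters above and 3 below input. The class had medians of 0.15 and 0.32 (0.23 ± 0.11, SD, n = 2). COX3 had 0.20 and 0.32, COX1 had 0.05 and 0.32, and COX2, nearest to input in replicate 1, had 0.00 and 0.31. The COX3 values were highest in its middle part, with 0.50 at 9511 to 9563 and 0.65 at 9727 to 9789 in replicate 1 and 0.75 at 9512 to 9560 and 0.51 at 9727 to 9791 in replicate 2. COX2 held the class's highest cluster, near its 3′ end, at 8138 to 8180 with 1.02 in replicate 1 and at 8140 to 8179 with 0.96 in replicate 2, with −log10 p of 12.1 and 12.9. The cluster before it, at 7984 to 8033 and 7990 to 8032, had 0.75 and 0.85. In COX1 the highest were 0.74 at 6644 to 6655 and 0.81 at 6643 to 6658. CYTB, the cytochrome b of complex III, had the highest mRNA medians averaged over the replicates, at 0.25 and 0.47 (0.36 ± 0.16), within the SD of ND1. Its values were above input on the 5′ side, below it in the middle of the 3′ side and above it at the 3′ end. In replicate 1 they were 0.25 at 14792 to 14877, 0.62 at 15106 to 15166, −0.68 at 15480 to 15523 and 0.75 at 15720 to 15752. In replicate 2 they were 0.69 at 14790 to 14879, 0.92 at 15103 to 15159, −0.72 at 15481 to 15504 and 0.74 at 15704 to 15750.

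Complex I mRNAs, for subunits of NADH dehydrogenase, ranged most widely among the mRNA classes. They also had the most clusters, 38 and 47 of the 75 and 84 in mRNAs. The class medians were −0.18 and −0.13 (−0.16 ± 0.03, SD, n = 2). ND1 stood above input, at 0.40 and 0.29, and its cluster nearest the 16S rRNA had the highest value of any mRNA, 1.09 at 3342 to 3384 in replicate 1 and 1.27 at 3346 to 3373 in replicate 2, with −log10 p of 10.1 and 11.6. ND1 went below input towards its 3′ end, with −0.86 at 4029 to 4074 and −0.84 at 4034 to 4077. ND2 had medians of −0.63 and −0.44, and its lowest clusters were near its 3′ end, with −0.89 at 5332 to 5404 and −0.54 at 5319 to 5407. In replicate 1 a cluster on its 5′ side, at 4880 to 4995, was almost as low, with −0.87. ND4 had medians of −0.48 and −0.36. Its first low part had −1.22 at 11223 to 11328 in replicate 1 and −1.35 at 11213 to 11286 in replicate 2. The lowest mRNA cluster of each replicate was in ND4 near its 3′ end, −1.95 at 12039 to 12047 in replicate 1 and −1.56 at 11997 to 12010 in replicate 2. ND5, with 11 and 13 clusters, had medians of −0.16 and 0.00, with its lowest value at its 5′ end, −0.97 at 12465 to 12516 and −0.65 at 12463 to 12530. The clusters that followed at 12721 to 12779 and 12704 to 12781 had 0.19 and 0.61. ND3 and ND4L had 3 or fewer clusters in each replicate and medians within 0.23 of input.

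Of the complex V mRNAs, for ATP synthase subunits that overlap on 1 transcript, ATP6 had the lowest medians of any mRNA averaged over the replicates, at −0.80 and −0.48 (−0.64 ± 0.22, SD, n = 2). Its values declined along its length, from 0.17 and 0.01 at 8616 to 8725 to medians of −1.17 and −0.74 at 9030 to 9184. ATP8 had medians of −0.14 and 0.09. Its 3 clusters went from −0.82 at 8428 to 8442 to 0.60 at 8505 to 8532 in replicate 1. In replicate 2 they went from −0.42 at 8419 to 8446 to 0.83 at 8506 to 8532.

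No common direction along the mRNAs was found. For 12 mRNAs with clusters on either side of their midpoint in both replicates, the mean log2 fold was higher on the 3′ side in both replicates for 4 and lower in both for 4. COX2 was 1.04 and 0.76 log2 units higher on its 3′ side and ATP8 1.08 and 0.99. The difference of the 3′ from the 5′ side was −0.57 and −0.73 in CYTB, −0.51 and −0.74 in ND1, −0.71 and −0.58 in ND6, and −1.12 and −0.60 in ATP6. The median over the 12 mRNAs was 0.01 in replicate 1 and −0.01 in replicate 2.

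In the order of transcript medians, TRNY, TRNP, TRNM and TRNF were followed by RNR1, TRNV, CYTB, ND1, COX3, COX1 and COX2. Below them came ND4L, ATP8, ND3, ND5, ND6, ND4, ND2, ATP6 and RNR2. Of the 19 neighbours in this order over 20 transcripts, 13 differed by less than the larger SD of the pair, and 10 kept their order in both replicates. The largest steps were from TRNY to TRNP (1.04 log2 units), from TRNV to CYTB (0.71) and from ATP6 to RNR2 (0.64). They were picked by size from the same means, so they were not set against the SDs. They also varied by replicate. TRNY and TRNP had 3.23 and 1.72 in replicate 1 but 2.88 and 2.31 in replicate 2. TRNV and CYTB had 0.62 and 0.25 in replicate 1 but 1.52 and 0.47 in replicate 2. TRNC, with a cluster in replicate 2 alone, was left out of the order. Replicate 2 had the higher median in 16 of the 20 transcripts.

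**Figure D4:**
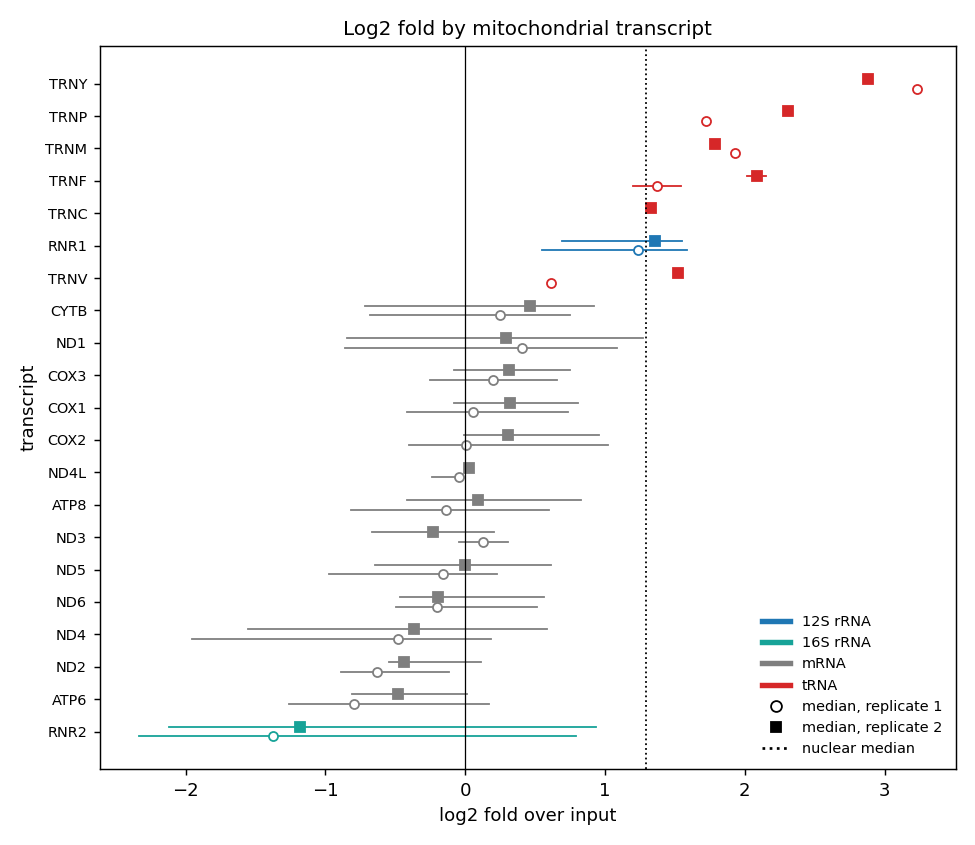
Median log2 fold over input (x axis) of each mitochondrial transcript (y axis) in replicate 1 (open circles) and replicate 2 (filled squares), with lines from the lowest to the highest cluster and the nuclear median dotted. The tRNAs and the 12S rRNA (RNR1) lie above all mRNA medians, and the 16S rRNA (RNR2) has the lowest median with the widest range.

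Copies of mitochondrial DNA exist in the nuclear genome, and for reads that match several places the sources used here do not give how they were assigned. Their part in these values was not tested.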

How the data were processed

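LARP4 eCLIP and size-matched input were sequenced from HEK293 cells. The submitters' processing notes list STAR 2.7.6a, SAMtools 1.6, cutadapt 1.14 and UMI-tools 1.0.0 and the build hg19. Of the peak caller and its scaling for depth the sources used here say nothing. The authors deposited intervals with a −log10 p of enrichment over input, limited to 400, and a log2 fold over input. The lists lack a header, and these units were inferred from the range of the values. Depth per cluster is unknown, and single folds have no interval.

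Starts were converted to 1-based positions. Clusters were assigned to the gene of their strand that holds their midpoint, with gene names and order from RefSeq (GRCh38.p14) and strands from textbook knowledge. The hg19 mitochondrial sequence exists in lengths of 16571 and 16569 bases, and which was used is not given. Moving gene borders by up to 5 bases left the gene of 174 of 174 and 185 of 186 clusters the same, the exception being the 1-base TRNM cluster. A stretch joins the clusters of both replicates until a gap of more than 50 bases follows. Its medians, and the split of the 16S rRNA, are descriptions chosen after the values were seen. Replicate clusters were paired by the longest overlap of at least 1 base on 1 strand.

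Named by rule were every transcript with a cluster, the series-wide region, enriched and minus-strand clusters, and the 5 overlapping pairs with the highest lower value and the 5 with the lowest higher value. Other clusters were named after their values were seen. The members and lists were chosen with earlier results of these data known. Software was GenomeInfoDb 1.38.1, matplotlib 3.10.9, pandas 2.3.3, numpy 2.4.6 and Python 3.11.15. Placement, pairing and medians were tested on simulated data.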

Additional observations from a re-analysis of the deposited data

How the results depend on the processing

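No paired analysis was possible because the inputs enter only as the denominator of the deposited folds. Counts of clusters depended on the thresholds. With the log2 fold threshold at 1 in place of 3, 25 clusters of replicate 1 and 30 of replicate 2 passed, and with it at 2, 1 of replicate 1 and 4 of replicate 2 did, where 11% and 11.3% of all clusters passed. A −log10 p of at least 5 changed neither enriched count. Counted beyond 1 log2 unit from input, 25 and 31 clusters were above (77 and 104 against 0) and 49 and 48 below (97 and 82 against 0). With each covered base counted once, the medians moved beyond the SD to −1.47 in the 16S rRNA, −0.20 in complex I mRNAs and −0.21 in complex V mRNAs. The other classes and the median of all mitochondrial clusters moved by less than the SD. Requiring clusters wholly inside a transcript, 5 bases from its ends, moved no class median or single transcript beyond its SD where both replicates had a value. It left none in TRNM and none in TRNY of replicate 1, and widened the SD of the tRNA medians from 0.19 to 0.62. Requiring that 50% of both clusters overlap left 142 of 168 pairs.

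With 2 replicates, leaving 1 out only gives back the median of the other, so these ranges are no further check. The median of all mitochondrial clusters was −0.11 to 0.14, so its side of the input level rests on the replicate. It was 1.23 to 1.36 in the 12S rRNA, −1.37 to −1.18 in the 16S rRNA and 1.63 to 1.90 in tRNAs. Complex I mRNAs had −0.18 to −0.13, complex III 0.25 to 0.47, complex IV 0.15 to 0.32 and complex V −0.52 to −0.28.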

Other observations

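Ends of clusters coincided between the replicates mainly in the rRNAs. Of the 168 overlapping mitochondrial pairs, 49 (29.2%) had the same start and 51 (30.4%) the same end, against 5.42% and 4.58% of 76837 nuclear pairs. The rRNAs carried most of these, with the same start in 39 (43.3%) and the same end in 41 (45.6%) of 90 pairs, against 7 (9.72%) each of 72 mRNA pairs. Both ends were the same in 19 (21.1%) of the rRNA pairs, in 0 of the mRNA pairs and in 0.433% of nuclear pairs. The clusters also differed in width. Median widths in replicates 1 and 2 were 7 and 6.5 bases in rRNAs, 49 and 43 in mRNAs and 51 and 50 in nuclear clusters. The part of width in these shares was not tested. Nor were the shares themselves, since touching clusters share ends.

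In the last stretch of the 16S rRNA, a piece of 2 bases at 3105 to 3106, with the same ends in both replicates, had lower values than its neighbours in each. Its log2 fold was 0.38 in replicate 1, between 0.55 at 3096 to 3104 and 0.52 at 3107 to 3119, and 0.62 in replicate 2, between 0.78 and 0.78. Its −log10 p was 27.9 beside 65.0 and 65.7 in replicate 1, and 84.4 beside 400 on both sides in replicate 2.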
